A study of Mus musculus with 12 samples.

Results

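Neurog1, Neurod1, Neurod4, Pou4f1, Isl1, Runx3, Ntrk3 and Prph are 8 transcripts of cranial and dorsal root sensory neurogenesis, out of 18193 genes with a probe set of their own on the array. They were listed by name for that role, with earlier results of these data known. Counts of members, and of the gene lists below, beside all genes are therefore descriptions and not independent support. The 25 probe sets of the members, of 45101 in all, were found through the single gene symbol of the platform annotation. For each gene the values are those of the probe set that was highest on average across the 12 arrays. All 8 were among the 13501 genes tested. RNA came from whole mouse embryos at E10.5 and was read on Affymetrix 3′ expression arrays. The 12 arrays hold 3 embryos each of double mutants (Acdacd/acd, p53-/-), acd mutants (Acdacd/acd), p53 mutants (p53-/-) and wild types (wt). Acd encodes TPP1, a shelterin protein of the telomere cap, and p53 is a stress-activated factor that stops or kills cells with damaged DNA. The labels describe neither allele, and the sources used here give neither strain nor litter. In a whole embryo, fewer sensory neurons and less transcript per neuron cannot be told apart.

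Sensory neurons of the head arise from ectodermal placodes and neural crest, and those of the dorsal root ganglia from neural crest. Neurog1 is a basic helix-loop-helix (bHLH) factor that commits precursors to the neuronal fate, and it acts upstream of Neurod1 and Neurod4, bHLH factors of the differentiating neuron. Pou4f1 (Brn3a), a POU homeodomain factor, and Isl1, a LIM homeodomain factor, then mark nearly all young sensory neurons and end the expression of the early bHLH genes. Runx3 and the neurotrophin-3 receptor Ntrk3 (TrkC) define the proprioceptive class, and Prph (peripherin) is an intermediate filament of peripheral neurons. All are made elsewhere too. Isl1 is also made in motor neurons and in the second heart field, the bHLH factors and Pou4f1 in the central nervous system, Prph in motor and sympathetic neurons and Runx3 in blood cells.

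The upstream sequences of Neurog1, Neurod4, Pou4f1 and Isl1 are shown because these are the 4 members whose acd arrays did not overlap the wt arrays. They are RefSeq sequences of GRCm38.p6, all on the minus strand, written 5′ to 3′, and they end just before the outermost annotated start of each gene, so they hold no exon of it. Of the 8 members, 7 matched an entry of the promoter table. The windows are chr13:56252181-56252430 for Neurog1, chr10:130280255-130280504 for Neurod4, chr14:104468119-104468249 for Pou4f1 and chr13:116309689-116309938 for Isl1. Capitals mark the E-box CANNTG, the motif that bHLH factors bind and that reads alike on both strands, and the octamer ATGCAAAT, a POU factor motif, on either strand (ATTTGCAT on the other).
Neurog1: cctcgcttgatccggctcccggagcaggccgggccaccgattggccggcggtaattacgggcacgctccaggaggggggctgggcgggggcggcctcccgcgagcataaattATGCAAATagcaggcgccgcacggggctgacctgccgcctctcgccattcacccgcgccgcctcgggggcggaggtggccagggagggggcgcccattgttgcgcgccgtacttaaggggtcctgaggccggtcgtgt
Neurod4: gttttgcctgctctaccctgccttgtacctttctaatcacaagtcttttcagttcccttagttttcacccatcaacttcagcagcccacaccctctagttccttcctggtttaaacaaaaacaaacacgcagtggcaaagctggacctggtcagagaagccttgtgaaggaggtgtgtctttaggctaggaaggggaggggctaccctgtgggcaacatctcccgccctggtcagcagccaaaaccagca
Pou4f1: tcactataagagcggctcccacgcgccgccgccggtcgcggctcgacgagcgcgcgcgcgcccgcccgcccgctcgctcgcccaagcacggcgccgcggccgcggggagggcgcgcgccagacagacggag
Isl1: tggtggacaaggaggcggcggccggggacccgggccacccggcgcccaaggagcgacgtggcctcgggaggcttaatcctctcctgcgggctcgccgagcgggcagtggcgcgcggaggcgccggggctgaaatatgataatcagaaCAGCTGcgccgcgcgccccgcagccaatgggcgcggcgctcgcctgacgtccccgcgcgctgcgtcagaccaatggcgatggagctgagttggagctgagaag
The Neurog1 window held 1 octamer, which 1.6% of the 32851 windows of 250 bases in the table held, and 0 E-boxes. The Isl1 window held 1 E-box, which 66.2% of those windows held. Neurod4 and Pou4f1 had neither motif in their windows, and a window of 131 bases, as for Pou4f1, held an E-box in 44.6% of promoters. The octamer was looked for after the Neurog1 sequence had been seen, and a match is a description of the letters alone.

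The values are log2 values of the authors' RMA normalization, which gives all arrays near-equal distributions, with medians of 5.32 to 5.40. The arrays of double mutant replicates 1 and 2 were the least like the rest, with median correlations of 0.972 and 0.987 to the other arrays over the genes tested, against 0.995 to 0.997 for the other 10 arrays. Acd itself measured 8.24 to 8.44 in double mutants, 8.22 to 8.31 in acd, 8.84 to 9.05 in p53 and on average 8.99 ± 0.01 in wt embryos (SD, n = 3), so its level went with the labels. Y-linked transcripts were present in 1 of 3 double mutant, 3 of 3 acd, 3 of 3 p53 and 1 of 3 wt embryos. Among double mutants and among wt embryos, the one with them was replicate 1. A sex term therefore rests on those genotypes alone. In double mutants it cannot be told apart from whatever else set replicate 1 apart. Neurog1, Neurod1, Neurod4, Pou4f1 and Isl1 lay above the array median on all 12 arrays. Runx3, Ntrk3 and Prph lay around or below it, on more than its level on 3, 0 and 4 of the 12 arrays. Whether these 3 exceed background is not shown here, and background can compress their differences. The label therefore rests on the 5 transcription factors that were well measured. Levels are compared between genotypes within a gene, not between genes.

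Neurog1, the determination factor, had the smallest spread of the members in double mutants and in wt. It measured 9.03, 9.04 and 8.99 in double mutants, 8.92, 8.69 and 8.60 in acd, 8.99, 9.07 and 8.87 in p53 and 8.98, 8.98 and 8.94 in wt embryos. The acd arrays lay below every wt and every double mutant array. The means were 9.02 ± 0.03 in double mutants, 8.74 ± 0.17 in acd, 8.98 ± 0.10 in p53 and 8.97 ± 0.02 in wt (SD, n = 3 each). In their order, double mutants, p53 and wt were separated by 0.05 or less, within the spread of the p53 arrays, and acd came last. In acd replicates 2 and 3 Neurog1 was lower than on any of the other 10 arrays, a pattern picked from the values that 3.55% of the genes tested also had. Replicate 1 lay 0.04 below the wt mean, and replicates 2 and 3 lay 0.28 and 0.37 below it.

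Neurod1, a target of the neurogenins, measured 9.03, 9.68 and 9.71 in double mutants, 9.62, 9.40 and 9.31 in acd, 9.68, 9.58 and 9.39 in p53 and 9.62, 9.46 and 9.48 in wt embryos. Its genotypes overlapped throughout, and the value of double mutant replicate 1 was the lowest of the 12. The genotype means spanned 9.44 in acd to 9.55 in p53, less than the SD of 0.38 among double mutants. Neurod4 measured 8.07, 8.16 and 8.53 in double mutants, 8.33, 8.03 and 8.29 in acd, 8.36, 8.46 and 8.46 in p53 and 8.36, 8.44 and 8.42 in wt. The acd arrays lay just below the wt arrays, with maximum 8.33 against minimum 8.36, while the double mutants held both the highest value and 2 of the 3 lowest. In Neurod4 the order of means was p53 (8.43), wt (8.40), double (8.25) and acd (8.22), in which neither p53 and wt nor double and acd differed beyond their spread.

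Pou4f1 measured 7.15, 7.89 and 7.75 in double mutants, 7.47, 7.29 and 7.15 in acd, 7.58, 7.71 and 7.57 in p53 and 7.86, 7.58 and 7.49 in wt embryos. All 3 acd embryos were below all wt embryos, by as little as 0.02 between the nearest arrays, and the double mutants ran from 7.15 to 7.89, across nearly the whole range. The means were 7.60 ± 0.39 in double mutants, 7.30 ± 0.16 in acd, 7.62 ± 0.08 in p53 and 7.64 ± 0.19 in wt (SD, n = 3 each), so acd came last and the other 3 did not differ beyond their spread. Isl1 measured 9.79, 10.002 and 9.98 in double mutants, 9.90, 9.88 and 9.70 in acd, 10.06, 10.08 and 9.83 in p53 and 10.07, 9.92 and 9.95 in wt. It had the smallest range of the members over the 12 arrays, 0.37, and its acd arrays also lay below the wt arrays. The order of its means was p53 (9.99), wt (9.98), double (9.93) and acd (9.83), in steps no larger than the SD of any neighbour.

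Runx3, Ntrk3 and Prph, the markers of neuronal subtype and of the neuron's cytoskeleton, differed in another way. Runx3 measured 5.60, 5.52 and 5.31 in double mutants, 5.25, 5.33 and 5.34 in acd, 5.26, 5.30 and 5.29 in p53 and 5.17, 5.19 and 5.27 in wt embryos. Ntrk3 measured 5.22, 5.00 and 4.84 in double mutants, 4.92, 4.82 and 4.90 in acd, 4.80, 4.78 and 4.80 in p53 and 4.85, 5.01 and 4.65 in wt. Prph measured 6.15, 6.35 and 5.05 in double mutants, 5.34, 5.07 and 4.94 in acd, 5.31, 5.49 and 4.99 in p53 and 5.37, 5.32 and 5.26 in wt. For Prph and Runx3, double mutant replicates 1 and 2, the arrays that stood apart, were above all other 10 arrays, as were 11.5% of the genes tested. Double mutant replicate 3 lay with the other genotypes, and for Prph it was among the 4 lowest arrays. On these arrays the mean of 8 haematopoietic markers, a possible other source of Runx3, deviated from wt by 0.92 and 0.64 in the first pair of double mutants and by -0.22 in replicate 3. It ranged from -0.23 to 0.10 in acd, from -0.18 to 0.08 in p53 and from -0.07 to 0.06 in wt embryos. The summed log2 level of those 8 markers was 46.7 to 55.8 in double mutants, 46.6 to 49.3 in acd, 47.0 to 49.1 in p53 and 47.9 to 49.0 in wt, and its part in the Runx3 values was not tested.

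**Figure D1:**
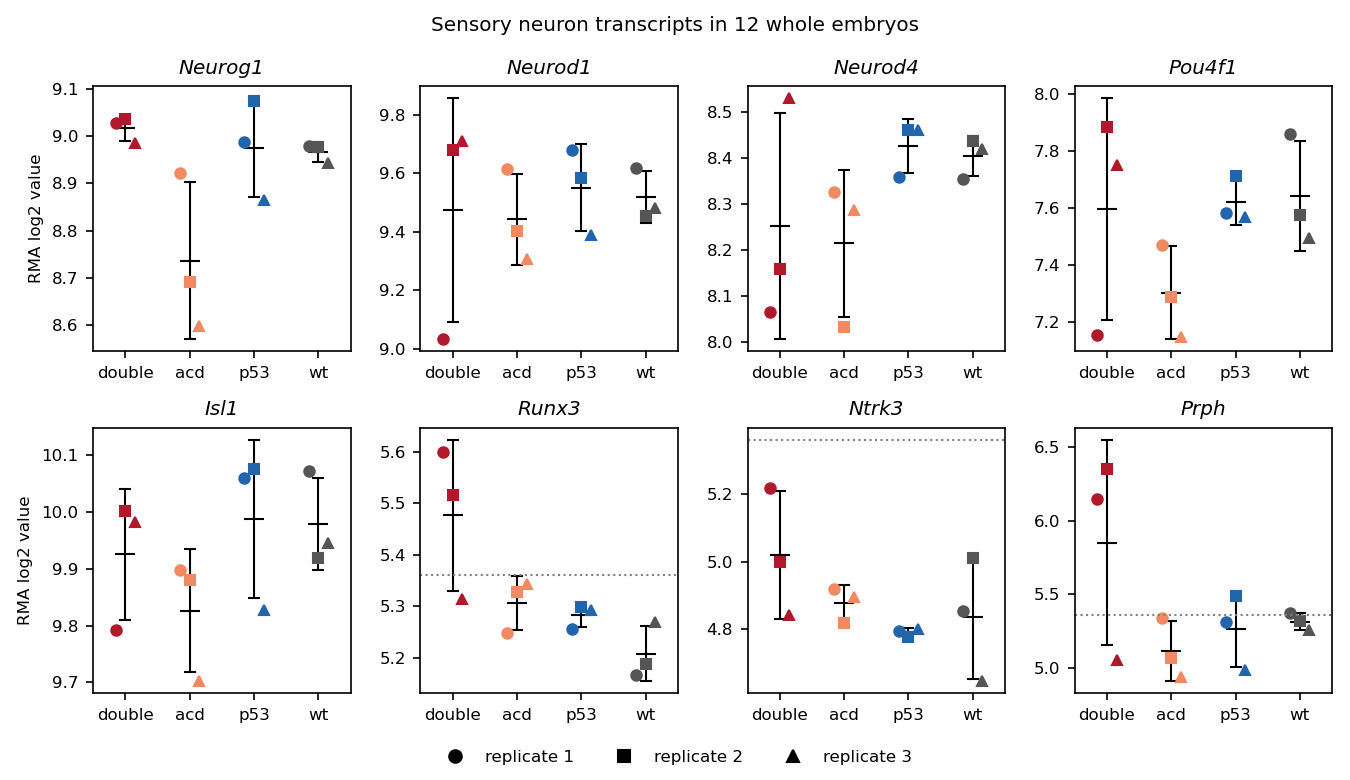
RMA log2 value (y axis) of each of the 8 transcripts in every embryo, by genotype (x axis), with marker shape giving the replicate number and bars the mean ± SD of 3 embryos. The dotted line in the panels of Runx3, Ntrk3 and Prph is the mean of the 12 array medians, and each panel has its own scale. Neurog1 is lowest in acd embryos, at 8.60 to 8.92, and Prph is highest in double mutant replicates 1 and 2, at 6.15 and 6.35.

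The comparison of double with acd embryos addresses the effect of p53 loss on embryos homozygous for acd, and all 8 members were higher in double mutants with all arrays. With a sex term the direction turned for Neurod1 and Neurod4 (-0.14 and -0.08). The only double mutant with Y-linked transcripts was replicate 1, the array least like the rest. For both genes the direction also turned without double mutant replicate 3 (-0.09 and -0.10), and for Neurod4 with the mean of all its probe sets (-0.02). None passed limma's test over all genes, where 0% of genes were called at an adjusted p of 0.05. At an unadjusted p under 0.05 there were 2 of 8 members, Neurog1 and Prph, against 12.6% of all genes. Neurog1 was 0.28 ± 0.09 higher on the log2 scale (SE, 1.21-fold, limma adjusted p = 0.371), with every double mutant array above every acd array, as was the case in either direction for 11.3% of genes. Prph was 0.74 ± 0.27 higher (adjusted p = 0.371), and the difference was -0.06 when double mutant replicates 1 and 2 were left out and 1.14 (adjusted p = 0.00132) without replicate 3, a setting that called 1876 genes in all. Pou4f1 was 0.29 ± 0.17 higher (adjusted p = 0.467), Runx3 0.17 ± 0.08 higher (adjusted p = 0.403) and Ntrk3 0.14 ± 0.11 higher (adjusted p = 0.562). Leaving out 1 double mutant moved Pou4f1 to 0.15 (without replicate 2) or 0.52 (without replicate 1), Runx3 to 0.11 (without replicate 1) and Ntrk3 to 0.04 (without replicate 1) or 0.23 (without replicate 3). Isl1, Neurod4 and Neurod1 measured 0.10, 0.04 and 0.03, and Isl1 was 0.04 without acd replicate 3 and 0.17 without double mutant replicate 1. The median of the 8 members was 0.16, and that of all genes was -0.01, with 47.2% of all genes higher.

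The comparison of acd with wt embryos addresses homozygous acd in the presence of p53. The 5 well-measured transcription factors were lower in acd embryos, and with Prph 6 of 8 members were lower. Y-linked transcripts were present in 3 of 3 acd and 1 of 3 wt embryos, and with a sex term Neurod1 turned to 0.09 while the other 4 factors stayed below 0. None passed limma's test, as against 0.0148% of all genes. Neurog1 was the only member with an unadjusted p under 0.05, a share of 1 in 8 beside 1.77% of all genes. It measured -0.23 ± 0.09 (0.853 of wt, adjusted p = 1), Pou4f1 -0.34 ± 0.17 (0.789 of wt, adjusted p = 1) and Neurod4 -0.19 ± 0.12, with Isl1 at -0.15 and Neurod1 at -0.08. Neurog1, Neurod4, Pou4f1 and Isl1 had acd arrays that did not overlap the wt arrays, 4 of 8 members, where 17.1% of all genes did not overlap in either direction. The Neurog1 difference was -0.16 without acd replicate 3 and -0.32 without acd replicate 1, and that of Pou4f1 was -0.23 without wt replicate 1 and -0.43 without acd replicate 1. Neurod4 was -0.10 without acd replicate 2, and without acd replicate 3 Isl1 was -0.09 and Neurod1 -0.01. Without acd replicate 1 Neurod1 was -0.16. The median of the members was -0.17, and that of all genes -0.01.

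The comparison of double with p53 embryos addresses homozygous acd in the absence of p53. Here the transcription factors measured 0.04 for Neurog1, -0.02 for Pou4f1, -0.06 for Isl1, -0.08 for Neurod1 and -0.18 for Neurod4. Neurod1 and Neurod4 had differences of about the same size in acd against wt. Neurod4 measured -0.31 (adjusted p = 0.0531) without double mutant replicate 3 and -0.08 without replicate 1. The 95% confidence intervals from the same fit ran from -0.15 to 0.24 for Neurog1 and from -0.40 to 0.35 for Pou4f1. The acd against wt values, -0.23 for Neurog1 and -0.34 for Pou4f1, have errors of their own. The interaction, given below, compares the differences by acd with and without p53. Its intervals held 0, from -0.006 to 0.55 for Neurog1 and from -0.21 to 0.84 for Pou4f1. Prph measured 0.59 ± 0.27 and Runx3 0.19 ± 0.08 (adjusted p = 0.463 each), and Ntrk3 0.23 ± 0.11 (adjusted p = 0.466). No member passed, beside 0.00741% of genes, and 1 of 8 had an unadjusted p under 0.05, beside 10.7%. Runx3 and Ntrk3 were the 2 members without overlap, beside 8.3% of genes. Without double mutant replicate 3, Prph (0.99, adjusted p = 0.00311) and Runx3 (0.28, adjusted p = 0.0344) passed, together with 1756 genes in all. In replicate 3 alone Prph measured -0.21 and Runx3 0.03, values of 1 embryo whose spread is taken from the other genotypes.

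Double against wt gave the combined difference, with the same wt arrays as the comparisons of both single mutants. Again 0 of 8 members passed, beside 0.0148% of genes, and 1 of 8, Runx3, had an unadjusted p under 0.05, beside 11.1%. Runx3 measured 0.27 ± 0.08 (adjusted p = 0.447) and Prph 0.54 ± 0.27 (adjusted p = 0.463), while Neurog1, Isl1, Neurod1 and Pou4f1 lay between -0.05 and 0.05. Runx3 and Neurog1 did not overlap, beside 13.2% of genes; for Neurog1 the separation was under 0.01 between the nearest arrays. Without double mutant replicate 3, Prph (0.94, adjusted p = 0.0041) and Runx3 (0.35, adjusted p = 0.0143) passed, together with 1646 genes in all. Neurod4 measured -0.15 ± 0.12 with all arrays (adjusted p = 0.565) and -0.29 (adjusted p = 0.0689) without that replicate.

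The comparison of p53 with wt embryos addresses loss of p53 by itself. The members differed least here, from -0.05 for Prph to 0.07 for Runx3, with 0 of 8 called, beside 0% of all genes, and 0 of 8 at an unadjusted p under 0.05, beside 0.726%. No member's arrays separated, beside 6.78% of genes. The confidence interval of Neurog1 ran from -0.19 to 0.21 and that of Pou4f1 from -0.40 to 0.35. The interaction subtracts the acd against wt difference from the double against p53 difference and so tests whether the difference by acd depends on p53. With all arrays it was above 0 for all 8 members, beside 49% of all genes. It also equals the double against acd difference less the p53 against wt difference. The latter was small for every member, so this count largely repeats that of double against acd. The interaction was 0.27 ± 0.13 for Neurog1, 0.32 ± 0.24 for Pou4f1 and 0.79 ± 0.38 for Prph. For Neurod1 (0.0001) and Neurod4 (0.01) it was near 0, with a sign that turned under several settings. None passed (adjusted p of 0.879 or more), beside 0% of genes, and 0 of 8 had an unadjusted p under 0.05, beside 3.93%. Without double mutant replicate 3 the interaction of Prph was 1.19 (adjusted p = 0.0128, among 439 genes called), and without double mutant replicates 1 and 2 it was -0.01.

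**Figure D2:**
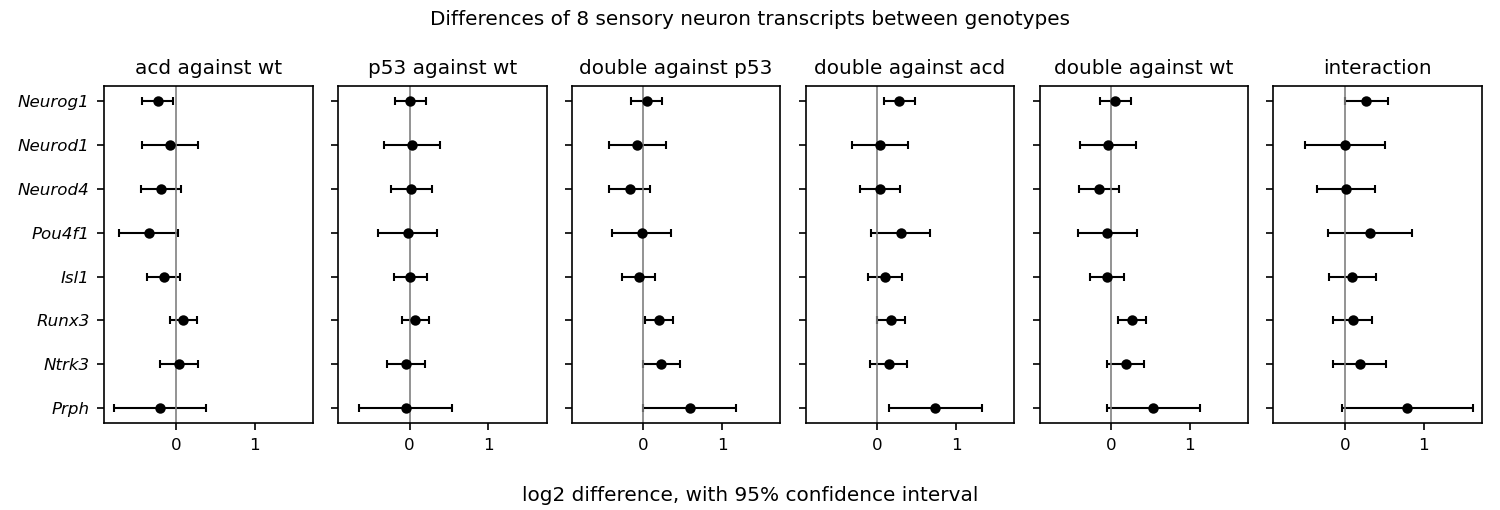
Log2 difference (x axis) of the 8 members (y axis) in each of the 5 comparisons between genotypes and in the interaction, with the 95% confidence interval of the fit to all 12 arrays. The intervals are not adjusted for the number of genes or comparisons, and no member passed after adjustment. In acd against wt the interval of Neurog1 lies below 0, at -0.43 to -0.03, and in double against acd above it, at 0.08 to 0.48. Also above 0 are Prph in double against acd (0.15 to 1.32) and Runx3 in double against p53 (0.02 to 0.37) and against wt (0.09 to 0.45).

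The members also differed between embryos of a genotype. Over the 5 well-measured factors, the mean deviation from wt was -0.29, 0.05 and 0.09 in double mutant replicates 1 to 3, -0.06, -0.24 and -0.29 in the acd embryos, 0.03, 0.08 and -0.08 in the p53 embryos and 0.07, -0.03 and -0.05 in wt. In acd replicates 2 and 3 all 5 factors lay below every wt array, and in acd replicate 1 this held for 4, with Neurod1 the exception. In double mutant replicate 1, 4 of the 5 lay below every wt array while Neurog1 lay above them. Double mutant replicates 1 and 2, which were alike in Prph and Runx3, thus differed in Pou4f1 (7.15 and 7.89) and Neurod1 (9.03 and 9.68). The within-genotype SD over the 12 arrays was 0.10 for Neurog1, 0.11 for Isl1, 0.15 for Neurod4, 0.22 for Neurod1 and 0.24 for Pou4f1.

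**Figure D3:**
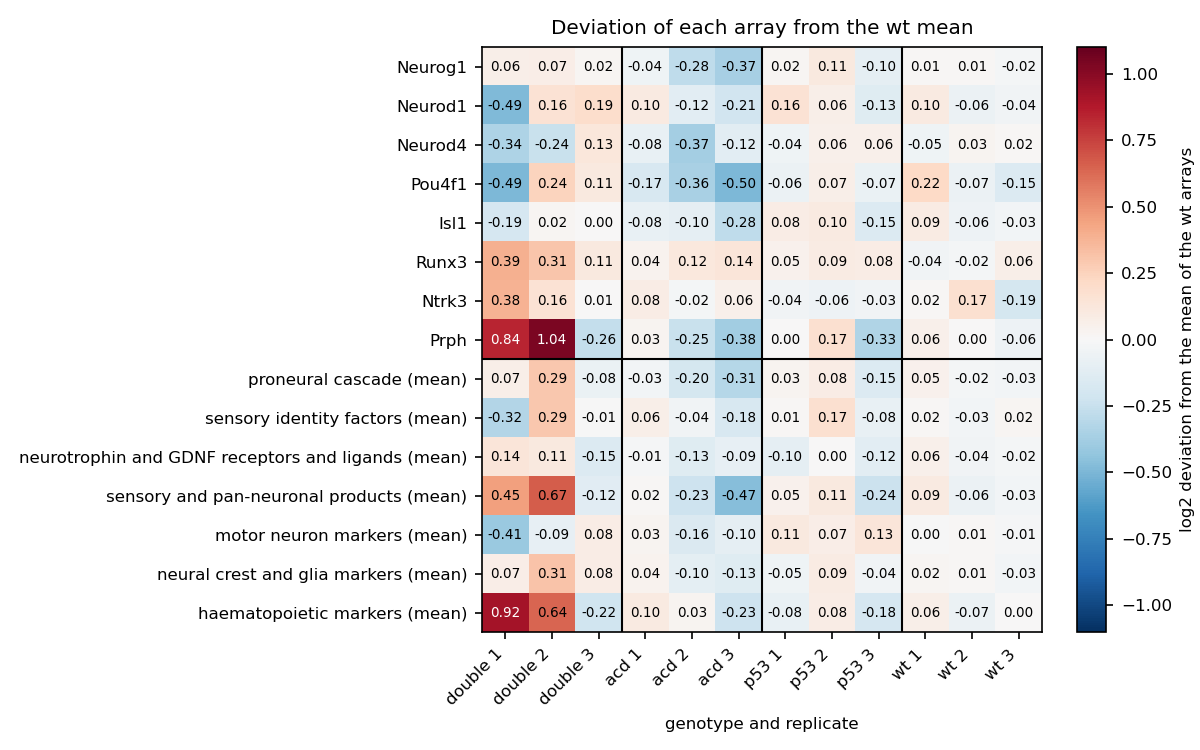
Log2 deviation of each array from the mean of the wt arrays (colour and number), for the 8 members (upper rows) and the mean of 7 lists of other genes (lower rows), with arrays ordered by genotype and replicate on the x axis. Double mutant replicates 1 and 2 are high for Prph (0.84 and 1.04), for neuronal products (0.45 and 0.67) and for haematopoietic markers (0.92 and 0.64), while acd replicate 3 is low for neuronal products (-0.47).

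Further probe sets of the same genes gave a check of each member. The second probe sets of Pou4f1, Isl1 and Neurod1 and a second one of Neurod4 also lay above the array median on all 12 arrays. In acd against wt they measured -0.23 for Pou4f1, -0.08 for Isl1, -0.15 for Neurod1 and -0.14 for Neurod4, all below 0 as were the probe sets used. In double against acd that of Pou4f1 measured 0.30, against 0.29 for the one used. The second probe set of Neurog1, at 4.64 to 4.97, lay below the array median on every array and measured 0.02 in acd against wt, so the Neurog1 values rest on 1 probe set. Prph has 3 further probe sets, which measured 0.12, 0.10 and -0.13 in double against acd, so the value of 0.74 rests on 1 probe set too. Of the 8 probe sets of Ntrk3 none lay above the array median on any array, and they measured -0.11 to 0.53 in double against acd. The second probe set of Runx3 lay below the median throughout and measured 0.18 in that comparison, against 0.17 for the one used. In double against wt it measured 0.07, against 0.27, and in acd against wt -0.11, against 0.10. In double mutant replicate 1 it was at 3.81, below the wt arrays (3.94, 3.96 and 3.89). The height of Runx3 in that replicate thus rests on 1 probe set too.

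**Figure D4:**
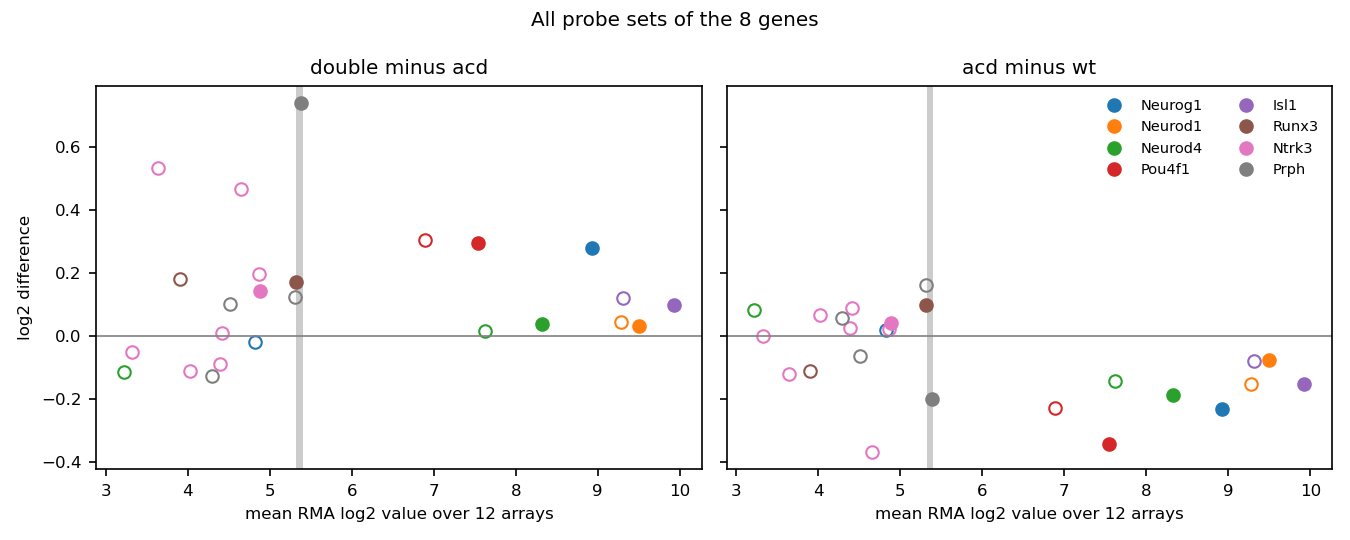
Log2 difference (y axis) of all 25 probe sets against their mean RMA log2 value over the 12 arrays (x axis), for double minus acd (left) and acd minus wt (right). Filled points are the probe sets used, open points the others, and the grey band is the range of the array medians. To the right of the band both well-measured probe sets of Pou4f1 lie at 0.29 and 0.30 in double minus acd and at -0.34 and -0.23 in acd minus wt.

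Other genes of the pathway were described by lists, in which no gene passed limma's test in any comparison. Of the proneural cascade, the genes that select and commit neuronal precursors, 16 of 17 measured genes were tested besides the members. In double against acd 16 of 16 were higher, with a median of 0.22 and 6 at an unadjusted p under 0.05, beside 47.2% of all genes higher and 12.6% at that p, and in acd against wt 15 of 16 were lower, with a median of -0.17. Neurog2, the neurogenin that acts earlier in the dorsal root ganglia, measured 8.82 to 9.25 in double mutants, 8.40 to 8.61 in acd, 8.65 to 8.92 in p53 and 8.62 to 8.68 in wt embryos. Its double mutant arrays lay above all acd and wt arrays, with 0.55 ± 0.11 in double against acd (adjusted p = 0.371), larger than the 0.28 of Neurog1. Neurog3, best known from the endocrine pancreas, measured -0.49 ± 0.12 in acd against wt (adjusted p = 1), and Hes6, a bHLH gene that promotes neurogenesis, 0.44 ± 0.16 in double against acd (adjusted p = 0.371). By embryo, the mean deviation of the list from wt was 0.07, 0.29 and -0.08 in double mutants and -0.03, -0.20 and -0.31 in acd. It was 0.03, 0.08 and -0.15 in p53 and 0.05, -0.02 and -0.03 in wt, so p53 replicate 3 lay lower than acd replicate 1.

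The other sensory identity factors did not move as a block, with 8 of 13 higher in double against acd (median 0.04) and 10 of 13 lower in acd against wt (median -0.03). Tlx3, a homeobox factor of relay and cranial sensory neurons, measured 0.22 ± 0.09 in double against acd (adjusted p = 0.384). Lmx1b, a LIM homeodomain factor, measured -0.55 ± 0.22 in double against wt (adjusted p = 0.447), and Isl2, the paralog of Isl1, -0.22 ± 0.11 (adjusted p = 0.459). Among receptors and ligands of the neurotrophin and GDNF families, 6 of 11 were higher in double against acd. Ngfr, the low-affinity receptor of all neurotrophins, measured 0.41 ± 0.12 in that comparison (adjusted p = 0.371), and Ntrk2, the BDNF receptor TrkB, 0.61 ± 0.26 in double against p53 (adjusted p = 0.463). The Ntrk2 level was 9.10 in double mutant replicate 1 and 8.66 in replicate 2, and 7.70 to 8.10 on the other 10 arrays. Artn, a GDNF family ligand, measured -0.27 ± 0.09 in double against wt (adjusted p = 0.447). Of the placode genes, 6 of 7 were lower in double against p53 (median -0.24), Eya2 at -0.38 ± 0.17 (adjusted p = 0.463). The list mean lay 0.58 below wt in double mutant replicate 1, 0.03 below it in replicate 2 and 0.11 above it in replicate 3.

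Products of the differentiated neuron had the largest median of the pathway lists in double against acd. In double against acd 16 of 16 tested genes were higher, with a median of 0.49 and 11 at an unadjusted p under 0.05, beside 12.6% of all genes. In acd against wt 16 of 16 were lower, with a median of -0.22. Of all genes, 47.2% were higher in each of these comparisons. In p53 against wt 13 of 16 were lower too, with a median of -0.04. By embryo, the list mean deviated from wt by 0.45, 0.67 and -0.12 in double mutant replicates 1 to 3. It deviated by 0.02, -0.23 and -0.47 in acd and by 0.05, 0.11 and -0.24 in p53. Stmn2, a tubulin-binding protein of growing axons, measured 0.92 ± 0.26 in double against acd (adjusted p = 0.371), Rtn1, a neuronal reticulon, 0.83 ± 0.27 and Sncg, a synuclein of peripheral neurons, 1.003 ± 0.33 (adjusted p = 0.371 each). Stmn2 was at 11.48, 11.30 and 10.33 in double mutants, 10.40, 10.16 and 9.81 in acd, 10.51, 10.66 and 10.13 in p53 and 10.44, 10.27 and 10.33 in wt embryos. Double mutant replicates 1 and 2 were the highest of the 12 arrays, as for Prph, while replicate 3 lay within the wt range of Stmn2.

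Cell types that share members with sensory neurons were also read from marker lists, and 0 of their genes passed in any comparison. Motor neuron markers, 7 of 9 tested, were lower in double against p53 for 7 of 7 (median -0.29), among them Lhx3 (-0.29 ± 0.08, adjusted p = 0.463), Lhx4 (-0.34 ± 0.14) and Olig2 (-0.37 ± 0.15). In p53 against wt 6 of 7 were higher (median 0.09), Lhx3 at 0.28 ± 0.08 (adjusted p = 1). In double against wt 7 of 7 were lower (median -0.07), Lhx3 at -0.002, Lhx4 at -0.33 ± 0.14 and Olig2 at -0.28 ± 0.15. The mean of the list deviated from wt by -0.41, -0.09 and 0.08 in double mutant replicates 1 to 3 and by 0.11, 0.07 and 0.13 in p53. The defining motor neuron genes Chat and Slc18a3 measured at most 4.15 and 4.12 on any array and were not tested. Second heart field markers, another site of Isl1, were lower for 7 of 8 in double against acd (median -0.19; Tbx20 -0.66 ± 0.21, adjusted p = 0.371). Neural crest and glial markers were higher for 6 of 8 in that comparison (median 0.15), with Ednrb at 0.39 ± 0.09 and Fabp7 at 0.86 ± 0.26 (adjusted p = 0.371 each). Sox10 and Ets1 were lower. Fabp7 is also counted among the neural progenitor markers, so its value does not tell these cell types apart. Neural progenitor markers were higher for 4 of 10 (median -0.06) and sympathetic markers for 4 of 6 (median 0.05). Haematopoietic markers were higher for 6 of 8 in double against acd (median 0.65), with Spi1 and Runx1 lower. They were higher for 7 of 8 in double against p53 (median 0.49) and for 8 of 8 in double against wt (median 0.50). In double against wt Cd53 measured 0.70 ± 0.25 and Ptprc 0.58 ± 0.20 (adjusted p = 0.447 each). Interferon response genes lay on average 3.71, 3.34 and 0.48 above wt in the double mutants. The part of any of these lists in the members' values was not tested.

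Prph was the only member whose values spanned 1 or more on the log2 scale (1.41 over the 12 arrays), and its pattern was set against every other tested gene. The genes most like it were Nfia, a transcription factor of glial and neural precursors, with a root mean square difference of 0.07 between mean-centred log2 values over the 12 arrays, Rtn1 (0.10) and Map2, a microtubule protein of dendrites (0.10). The Nfia level was 7.95 in double mutant replicate 1 and 8.32 in replicate 2, and 6.85 to 7.50 on the other arrays. Map2 was at 9.26 and 9.24 in those replicates, against at most 8.63 elsewhere. The choice by likeness fixes that they are high in the same embryos as Prph, a pattern that 1553 genes (11.5%) had.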

How the data were processed

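Deposited values are log2 values that the authors made from the scanner files with justRMA (background correction, quantile normalization, summary of probes), per the series' design text, which also names BRB-ArrayTools 4.4.0 for the selection of genes. Scanner files were not used here. The transcript of p53 itself is not analysed here. Genotype and replicate number come from the sample titles, which call the replicates biological. Of 45101 probe sets, 34945 had 1 gene symbol in the platform annotation and 932 had several, and 64 were controls. Symbols were matched by gene identifier to RefSeq (34741 probe sets, 0 changed).

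Tested genes had a value over the 40th percentile of the array on at least 3 arrays. Differences come from limma 3.58.1 in R 4.3.3, with a mean per genotype over all 12 arrays, moderated variances (eBayes, 8 residual degrees of freedom before moderation) and p-values, all two-sided, adjusted by Benjamini-Hochberg over 13501 genes. The code was tested on simulated data. The number of embryos limits the precision: 3 against 3 cannot reach a two-sided exact permutation p below 0.1, so single values were not permuted. Alternatives were other filters, probe set rules, normalizations, variance models and array weights, a replicate block, a sex term, fewer arrays and leaving out arrays.

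Named are all members, up to 3 genes of each list with the smallest p, the genes most like a member spanning 1 or more, and, chosen after their values were seen, Chat, Slc18a3 and the patterns by array. Members and lists were chosen with earlier results of these data known.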

Additional observations from a re-analysis of the deposited data

Results flagged for a closer look

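Neurog1 was singled out because every acd array lay below the wt mean and every double mutant array above the p53 mean. The rule was applied to the members alone, and the share of all genes that meet it was not counted. Relative to the mean of the p53 embryos, the double mutants lay at 0.05, 0.06 and 0.01, all within the p53 SD of 0.10. Relative to wt the acd embryos lay at -0.04, -0.28 and -0.37. The interaction, which tests the difference between these effects in limma, was 0.27 ± 0.13 (SE, adjusted p = 0.879) and did not pass.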

How the results depend on the processing

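With the data as analysed, 0 of 8 members were called in any comparison. This held without the filter, with a filter at the 60th percentile (5 members left to test) and with the mean of all probe sets of a gene (6 tested). It also held with a variance trend with robust moderation, a sex term and only the arrays compared. Median centring and quantile normalization also called 0, but the deposited values were already quantile normalized, so these settings could change little. With only replicate 3 of the double mutants 0 were called too, but that group then has 1 array, assumed to vary like the other genotypes, and the count says nothing about stability. Array weights called 2 members in double against acd, Pou4f1 (0.54, adjusted p = 0.0309) and Prph (1.06, adjusted p = 0.0164), and 2 in double against wt, Prph (0.86, adjusted p = 0.0205) and Runx3 (0.29, adjusted p = 0.0188), among 1774 and 1805 genes called in these comparisons. Leaving out 1 array gave 0 to 2 members called in double against p53, double against acd and double against wt, 0 to 1 in the interaction, and 0 in the other comparisons. The calls came only without double mutant replicate 3. In double against acd they were Prph (1.14, adjusted p = 0.00132) and Runx3 (0.25, adjusted p = 0.0436). All genes called then numbered 1756, 1876, 1646 and 439 in those 4 comparisons, in that order. The cause was not tested.

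The differences below changed sign under some settings, among them those of Prph, which are large in the double mutant comparisons. With the mean of all probe sets these were Pou4f1 (0.011) and Prph (0.048) in p53 against wt, Pou4f1 (0.0033) and Neurog1 (-0.0073) in double against p53, Neurod4 in double against acd (-0.021), Pou4f1 in double against wt (0.014) and the interaction of Neurod4 (-0.043). With median centring they were the interactions of Neurod1 (-0.020) and Neurod4 (-0.0069). With array weights they were Ntrk3 in acd against wt (-0.0052), Isl1 (-0.0081) and Neurog1 (-0.0099) in p53 against wt, Pou4f1 (0.23), Isl1 (0.023) and Neurod1 (0.12) in double against p53, Pou4f1 (0.19), Isl1 (0.015) and Neurod1 (0.14) in double against wt, and the interaction of Neurod4 (-0.00077). With a sex term they were Neurod1 (0.094) and Ntrk3 (-0.068) in acd against wt, Pou4f1 (0.090) and Neurog1 (-0.0033) in p53 against wt, Neurod1 (-0.14) and Neurod4 (-0.082) in double against acd, and the interactions of Neurod1 (-0.34) and Neurod4 (-0.22). Without double mutant replicates 1 and 2 they were Pou4f1 (0.13), Neurod1 (0.16), Neurod4 (0.10) and Prph (-0.21) in double against p53, Prph (-0.060) and Ntrk3 (-0.035) in double against acd, Pou4f1 (0.11), Isl1 (0.0029), Neurod1 (0.19), Neurod4 (0.13) and Prph (-0.26) in double against wt, and the interactions of Prph (-0.0093) and Runx3 (-0.066).

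Leaving out 1 array at a time, the values that crossed 0 ranged as follows. In acd against wt Ntrk3 ran from -0.055 to 0.13. In p53 against wt Pou4f1 ran from -0.097 to 0.086, Isl1 from -0.036 to 0.089, Neurog1 from -0.040 to 0.065, Neurod1 from -0.034 to 0.11, Neurod4 from -0.0017 to 0.057, Prph from -0.16 to 0.087 and Ntrk3 from -0.14 to 0.042. In double against p53 Pou4f1 ran from -0.17 to 0.20, Isl1 from -0.14 to 0.0042, Neurog1 from -0.014 to 0.090 and Neurod1 from -0.19 to 0.14. In double against acd Neurod1 ran from -0.085 to 0.25 and Neurod4 from -0.10 to 0.13, and in double against wt Pou4f1 from -0.19 to 0.17, Isl1 from -0.092 to 0.013 and Neurod1 from -0.16 to 0.18. The interaction of Neurod1 ran from -0.12 to 0.22 and that of Neurod4 from -0.13 to 0.11. Neurog1 in double against acd ran from 0.21 to 0.37. Its sign there and in acd against wt could not turn, because the arrays of the genotypes compared do not overlap.

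The replicate numbers share no stated litter or day. Deviations of same-numbered arrays correlated at -0.23 to 0.39 (median 0.04, 7 of 18 pairs over 0.1). Arrays of different number correlated at -0.39 to 0.28 (median 0.001, 9 of 36 pairs over 0.1). The ranges overlap, though they lean towards the same number, so the correlations do not settle whether the numbers pair samples. In the absence of a stated link they were not taken to do so. With the replicate number as a block, 0 members were called (lowest adjusted p 0.265). Every genotype has the same replicate numbers, so the block leaves all 48 differences as they were. It can change only their errors. With 3 embryos a genotype the 95% interval of Pou4f1 spans about 0.74, and low signal limits Runx3, Ntrk3 and Prph.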
